A study of Mus musculus with 2 samples.

Results

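Ccr2, a chemokine receptor, and 4 chemokines that have been described as its ligands, Ccl2, Ccl7, Ccl8 and Ccl12, were followed across the cells of mouse pancreatic tumors. The 5 genes were chosen for their known function and make up 5 of the 2000 genes in the deposited single-cell table. Cells of the KPC organoid line MT4, a pancreatic adenocarcinoma line, had been placed orthotopically in the pancreas, and tumors were taken at day 14 and dissociated with collagenase and DNase. The Ahr cKO library (C57/BL6 Ahr fl/fl Lys M) came from mice with a floxed aryl hydrocarbon receptor gene and LysM-Cre, a driver that acts mainly in macrophages, monocytes and neutrophils. The Ahr fl/fl library (C57/BL6 Ahr fl/fl) came from mice with the same floxed alleles, whose genotype label names no Cre. For each library, tumors of 3 mice were pooled, live DAPI-sorted cells were loaded on a 10X Genomics Chromium chip, and 4577 Ahr cKO and 5196 fl/fl cells were deposited. With 1 library per genotype, no difference between genotypes could be tested, and all intervals below cover counting error only.

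Ccr2 is a G protein-coupled receptor that guides inflammatory monocytes out of the bone marrow and into inflamed tissue and tumors. Its ligands are small secreted CC chemokines whose genes lie side by side in the genome. In pancreatic tumors, recruitment of Ccr2-bearing monocytes is known as a supply of tumor macrophages. Ccl2 and Ccl7 are ligands of Ccr2 in mouse and in human, and Ccl7 also binds other CC receptors. Ccl12 is a mouse ligand of Ccr2, and mouse Ccl8 has been described mainly as a ligand of Ccr8, a receptor that is not among the measured genes.

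In GENCODE vM21 (GRCm38), the 4 ligand genes lie on the plus strand of chromosome 11, in the order Ccl2 (chr11:82035571-82037453), Ccl7 (chr11:82045712-82047525), Ccl12 (chr11:82101845-82103400) and Ccl8 (chr11:82115185-82116799). Ccl11, which lies between Ccl7 and Ccl12, is not among the 2000 genes. Each ligand gene has 3 exons. Ccr2 lies on the plus strand of chromosome 9 (chr9:124101950-124113557), and its transcript with the longest coding sequence has 4 exons. The 4 ligands resemble each other in sequence, so the stretch of 60 coding bases around the adjacent cysteine codons, the pair that gives CC chemokines their name, is shown here to let the genes be compared. Capitals mark the 2 cysteine codons.

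Ccl2: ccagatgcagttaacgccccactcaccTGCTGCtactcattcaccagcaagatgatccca
Ccl7: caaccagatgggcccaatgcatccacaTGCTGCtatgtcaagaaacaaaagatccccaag
Ccl8: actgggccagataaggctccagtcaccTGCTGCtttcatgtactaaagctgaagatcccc
Ccl12: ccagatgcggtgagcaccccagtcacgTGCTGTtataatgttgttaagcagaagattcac

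The windows start at coding base 73 in Ccl2, 70 in Ccl7, 67 in Ccl8 and 70 in Ccl12. Over the whole coding sequence, Ccl7, Ccl8 and Ccl12 were 63.2% to 65.1% identical to each other, while Ccl2 was 47.2% to 48.9% identical to the other 3. The longest run of identical bases shared by any 2 of the 4 transcripts was 23 bases, between Ccl2 and Ccl7. Within the last 300 bases of the transcripts, the end that droplet kits of the 3′ type read, the longest shared run was 13 bases. How reads that fit more than 1 gene were counted is not given in the sources used here.

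The promoters of Ccl12 and Ccl8, the 2 ligands that were detected most often in macrophages (below), could be read from RefSeq (GRCm38.p6). The 250 bases before each start are shown, with the TATAAA match in capitals.

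Ccl12, chr11:82101595-82101844, plus strand: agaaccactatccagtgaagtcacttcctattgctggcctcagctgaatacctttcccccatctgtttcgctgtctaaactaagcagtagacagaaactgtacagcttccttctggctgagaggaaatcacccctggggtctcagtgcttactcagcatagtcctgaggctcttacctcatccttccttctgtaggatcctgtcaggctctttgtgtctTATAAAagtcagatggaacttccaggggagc
Ccl8, chr11:82114935-82115184, plus strand: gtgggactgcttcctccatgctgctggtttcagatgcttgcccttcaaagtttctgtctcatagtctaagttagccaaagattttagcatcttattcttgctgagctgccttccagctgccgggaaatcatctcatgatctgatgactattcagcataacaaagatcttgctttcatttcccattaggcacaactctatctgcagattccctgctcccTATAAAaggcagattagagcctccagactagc

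TATAAA stood 31 to 26 bases before the start of Ccl12 and 32 to 27 bases before that of Ccl8, and 7.59% of the 32851 promoters of the table hold it on the plus strand. Neither window held the letters TGANTCA (AP-1, in 6.75% of all promoters), GGG and CC with any 5 bases between them (NF-kappaB, 45.8%), TTCNNNGAA (STAT, 7.02%), TTGCNNAA (C/EBP, 9.56%) or GAAA, any 2 bases and GAAA again (the core of the interferon-stimulated response element, 2.98%), searched on both strands.

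The values are scaled scores per gene, cut at 10, and carry no count of molecules, so depth per cell is known only as the number of genes above zero. Among fl/fl cells the lowest value of a gene was shared by most cells, and is called its zero level: 78.1% of fl/fl cells stood at it for Ccr2, 89.4% for Ccl2, 95.6% for Ccl7, 97.7% for Ccl8 and 96.6% for Ccl12. In the Ahr cKO library only 23.0% of cells stood at that level for Ccr2 and 48.6% for Ccl2, and 25.5% and 14.4% lay below it. The Ahr cKO values thus appear to have been moved by a correction, so shares of cells above zero are given for the fl/fl library alone. The genotypes are compared by means and by counts of cells well above the fl/fl zero level, both of which the correction can move. The median fl/fl cell had 108 genes above zero, with a 5th to 95th percentile range of 45 to 441.

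Clustering of all cells gave 25 clusters in 14 classes, named from marker genes where the markers allowed it. The Macrophage-like class was led by C1qa, C1qb and C1qc, complement genes typical of tissue macrophages, and held 172 Ahr cKO and 253 fl/fl cells. The Monocyte-like class was led by Lyz2, Ms4a6c and Plac8 and held 391 Ahr cKO and 440 fl/fl cells. A cluster led by Arg1, Fn1 and AA467197 (181 Ahr cKO and 256 fl/fl cells) had macrophage markers at a mean score of 0.66 and monocyte markers at 0.46, and so kept the name of its leading genes. A cluster led by Vim, Fth1 and Atf3 (327 Ahr cKO and 341 fl/fl cells) had markers of macrophages, monocytes and neutrophils and was likewise left unnamed. Ccl2 was among the 10 leading genes of the Vim/Fth1/Atf3 cluster, and Ccr2 among those of the Monocyte-like class and of 1 DC-like cluster (DC, dendritic cell), so a high level of these genes there is partly how the clusters were formed. In fl/fl cells of the Macrophage-like class, all 9 measured macrophage markers were above zero in 27.7% to 94.5% of cells, while no T cell marker exceeded 6.72% and no tumor epithelial marker exceeded 8.70%.

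The libraries shared 656 cell barcodes, 14.3% of Ahr cKO cells and 12.6% of fl/fl cells, and these bear directly on the chemokine-rich cells. Shared barcodes made up 325 of the 327 Ahr cKO cells (99.4%) and 322 of the 341 fl/fl cells (94.4%) of the Vim/Fth1/Atf3 cluster. In the Monocyte-like class they made up 259 of 391 Ahr cKO cells (66.2%) and 260 of 440 fl/fl cells (59.1%). In the DC-like class the shares were 16% of Ahr cKO and 9.34% of fl/fl cells, in the Macrophage-like class 2.33% of Ahr cKO and 0.791% of fl/fl cells, and in the Arg1/Fn1 cluster 0.552% of Ahr cKO and 0.781% of fl/fl cells. The 2 cells of a shared barcode fell in the same cluster in 622 of the 656 pairs (94.8%). Over all 2000 genes, the profile of a cell correlated with that of its partner at a median of 0.431, against 0.0712 with other cells, and the partner was the best match in 540 pairs (82.3%).

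Over all pairs, ligand values followed the barcode pairs closely. Between the 2 cells of a pair, the Ahr cKO and the fl/fl value correlated at 0.864 for Ccl2, 0.840 for Ccl7, 0.833 for Ccl12, 0.977 for Ccl8 and 0.401 for Ccr2, described over 656 pairs. Only 16 of the 656 fl/fl cells were above zero for Ccl8, and the pairs span several classes. Within 314 pairs of the Vim/Fth1/Atf3 cluster the ligands correlated at 0.740 (Ccl8) to 0.857 (Ccl2). Within 247 Monocyte-like pairs the values were 0.775 for Ccl2, 0.318 for Ccl7, 0.890 for Ccl12 and 0.933 for Ccl8. Mean Ccl2 in the pairs was 0.98 in Ahr cKO cells (SD 2.02) and 0.89 in fl/fl cells (SD 2.09). Cells under 1 barcode in both libraries cannot be taken as independent cells of 2 genotypes, and each result that rests on them is given with and without them. Without them, the Vim/Fth1/Atf3 cluster kept 2 Ahr cKO and 19 fl/fl cells, and clustering the remaining cells anew gave no cluster that corresponded to it.

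**Figure D1:**
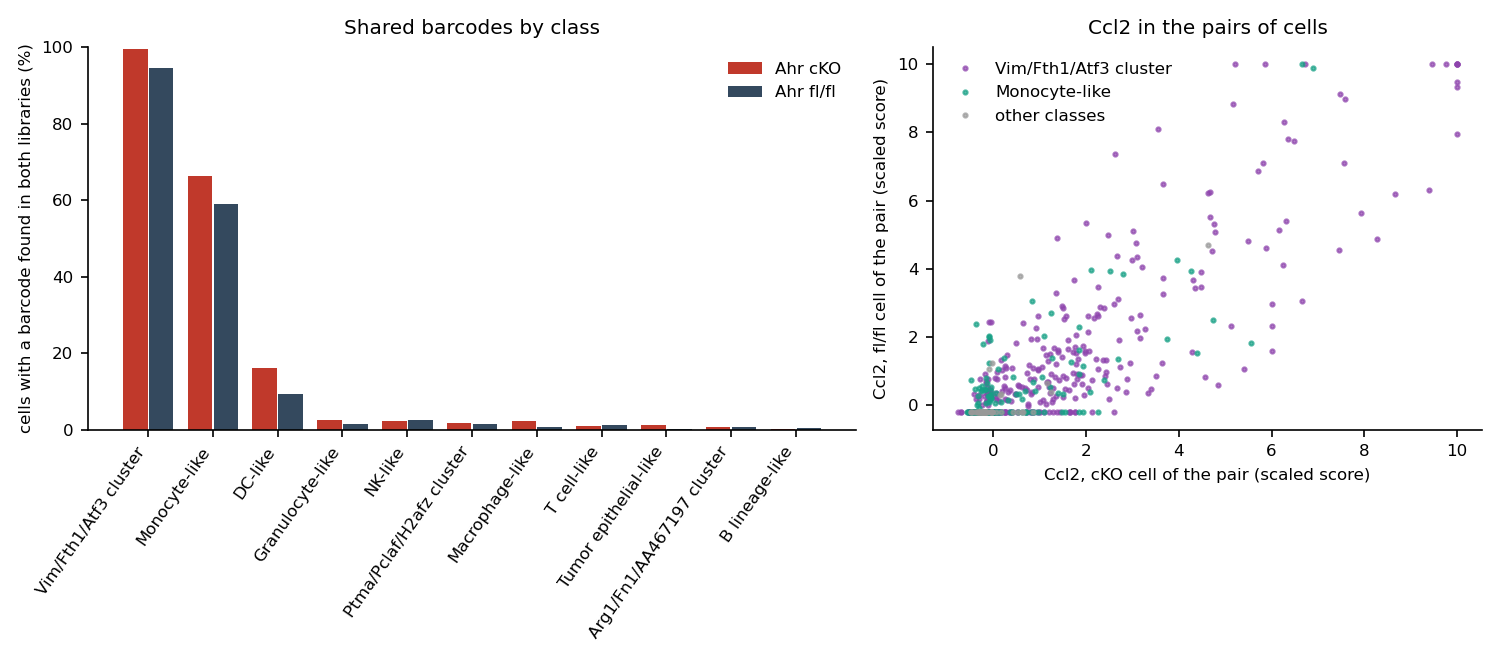
Left, the percentage of cells with a barcode found in both libraries (vertical axis) for each class, with Ahr cKO bars left of fl/fl bars. Right, the scaled Ccl2 value of the fl/fl cell (vertical axis) against that of the Ahr cKO cell (horizontal axis) for each of the 656 shared barcodes; nearly all cells of the Vim/Fth1/Atf3 cluster are shared, and Ccl2 values of the pairs correlate at 0.864.

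Ccl2, the main monocyte attractant of the family, was detected mostly in myeloid cells. Over all fl/fl cells it was above zero in 236 of 341 cells of the Vim/Fth1/Atf3 cluster (69.2%, exact 95% interval 64.0% to 74.1%), which nearly all carry shared barcodes. With shared barcodes left out, 9 of its remaining 19 cells (47.4%) were above zero, and among classes with at least 50 fl/fl cells, to which the values below without shared barcodes refer, the highest share was in the Arg1/Fn1 cluster. It stood at 77 of 254 cells (30.3%, 24.7% to 36.4%). The Macrophage-like class followed with 42 of 251 cells (16.7%, 12.3% to 21.9%), a cluster led by Sparc, Hbb-bs and Hba-a2 with 16 of 103 (15.5%), and the Monocyte-like class with 27 of 180 (15%, 10.1% to 21.1%). The intervals of these 3 overlapped, while that of the Arg1/Fn1 cluster stood above them. Tumor epithelial-like cells were above zero for Ccl2 in 50 of 777 cells (6.44%, 4.81% to 8.40%). In lymphoid cells Ccl2 was at background, with 1 of 762 T cell-like cells (0.131%) at a median of 107 genes above zero, and 0 of 155 NK-like cells, which allows up to 1.94% of cells above zero by a limit of 3 cells (exact upper limit 2.35%).

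Ccl2 was more often above zero under shared barcodes, in 27.3% of 260 shared and 15% of 180 other Monocyte-like fl/fl cells. The shares were 15.8% of 38 shared and 2.17% of 369 other DC-like cells. In the Vim/Fth1/Atf3 cluster they were 70.5% of 322 shared and 47.4% of 19 other cells (24.4% to 71.1%). Median genes above zero, shared and other, were 120.5 and 133.5 in Monocyte-like cells, 140.5 and 82 in DC-like cells and 156 and 83 in the Vim/Fth1/Atf3 cluster. Of the DC-like cells, 36 of the 38 shared and 141 of the 369 others lay in the cluster led by H2-DMb1, Cd209a and Clec10a. The Ccl2-positive cells outside the myeloid classes were unusually rich in genes. Tumor epithelial-like cells with Ccl2 had a median of 671 genes above zero, against 139 in those without it. In the Sparc/Hbb-bs/Hba-a2 cluster, where collagen genes such as Col1a1 and Col3a1 stood among the leading genes beside hemoglobin genes, the medians were 770.5 with Ccl2 and 77 without. The part of depth in these shares was not tested.

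Ccl7, which attracts monocytes and other leukocytes, was found in fewer classes than Ccl2. With shared barcodes left out it was found in 33 of 251 Macrophage-like cells (13.1%, 9.23% to 18.0%), 29 of 254 cells of the Arg1/Fn1 cluster (11.4%, 7.78% to 16%) and 9 of 103 cells of the Sparc/Hbb-bs/Hba-a2 cluster (8.74%, 4.07% to 15.9%), whose intervals overlap. Monocyte-like cells, whose Ccl2 share overlapped with that of macrophages, had Ccl7 in only 2 of 180 cells (1.11%, 0.135% to 3.96%), an interval below that of all 3. No other class of that size exceeded 0.654%, tumor epithelial-like cells included, with 2 of 777 (0.257%). Over all cells the Vim/Fth1/Atf3 cluster was highest, with 130 of 341 cells (38.1%, 32.9% to 43.5%).

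Ccl12 was detected in macrophages, the Arg1/Fn1 cluster and monocytes. Without shared barcodes, 48 of 251 Macrophage-like cells (19.1%, 14.5% to 24.5%), 25 of 254 cells of the Arg1/Fn1 cluster (9.84%, 6.47% to 14.2%) and 11 of 180 Monocyte-like cells (6.11%, 3.09% to 10.7%) carried it. The Macrophage-like interval stood above the other 2, which overlapped. Every other class of that size was below 1%, tumor epithelial-like cells included, with 1 of 777 (0.129%). Over all cells, 66 of 341 cells of the Vim/Fth1/Atf3 cluster (19.4%) were above zero.

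Ccl8 marked the Macrophage-like class. The gene was detected in 62 of 251 Macrophage-like cells (24.7%, 19.5% to 30.5%), and in 3 of 254 cells of the Arg1/Fn1 cluster (1.18%, 0.244% to 3.41%), the cluster in which Ccl2 was highest. The second share was in tumor epithelial-like cells, with 23 of 777 (2.96%, 1.89% to 4.41%), which overlapped with the shares of all lower classes down to 0.971% in the Sparc/Hbb-bs/Hba-a2 cluster. Where Ccl8 was above zero in Macrophage-like cells, its scaled value averaged 5.07 (SD 3.62). The Ccl2-positive cells of that class averaged 1.27 (SD 1.27) for Ccl2, each value being relative to its own gene's spread. Shared barcodes played little part, since 121 fl/fl cells in all were above zero and 105 remained without them.

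Ccr2 was far more widely detected than its ligands and was not confined to monocytes. Without shared barcodes it was detected in 136 of 180 Monocyte-like cells (75.6%, 68.6% to 81.6%), 152 of 254 cells of the Arg1/Fn1 cluster (59.8%, 53.5% to 65.9%) and 127 of 251 Macrophage-like cells (50.6%, 44.2% to 56.9%). The Monocyte-like interval stood above the other 2, which overlapped. A cluster led by Ptma, Pclaf and H2afz, genes of growing and dividing cells, had 76 of 210 cells (36.2%), and NK-like cells had 56 of 155 (36.1%, 28.6% to 44.2%). B lineage-like and Granulocyte-like cells, at 7 of 618 (1.13%) and 7 of 764 (0.916%), gave the background. The median genes above zero in those classes were 73 and 84.5, against 133.5 in Monocyte-like and 108 in NK-like cells.

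In classes made of several clusters, Ccr2 was uneven. Among DC-like cells it was above zero in 69 of 369 (18.7%, 14.9% to 23.1%): 53 of 141 cells (37.6%) of the cluster led by H2-DMb1, Cd209a and Clec10a, 13 of 178 (7.30%) of the cluster led by Cst3, Plet1 and H2-Ab1, and 3 of 50 (6%) of the cluster led by Fscn1, Ccr7 and Cacnb3. Clec10a and Cd209a are known from conventional type 2 dendritic cells, and Fscn1 and Ccr7 from migratory ones. Among T cell-like cells it was above zero in 72 of 762 (9.45%, 7.47% to 11.8%). The cluster led by Ikzf2, Icos and Tnfrsf4, genes known from regulatory T cells, had 17 of 83 cells (20.5%) and the cycling cluster led by Hmgb2, Top2a and Tubb5 had 27 of 139 (19.4%). The cluster led by Tcf7, Lef1 and Ms4a4b, genes of naive-like T cells, had 4 of 267 (1.5%). The scaled Ccr2 value of the positive T cell-like cells averaged 0.63 (SD 0.78), against 2.73 (SD 1.81) in Ccr2-positive Monocyte-like cells.

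Shared and other Monocyte-like cells of the fl/fl library differed in Ccr2. The mean was 0.75 (SD 1.17, 260 cells) under shared barcodes and 1.97 (SD 2.07, 180 cells) under the others, with 66.2% and 75.6% of cells above zero. Mean Ccr2 was thus lower in the cells under shared barcodes, although the values overlapped widely.

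**Figure D2:**
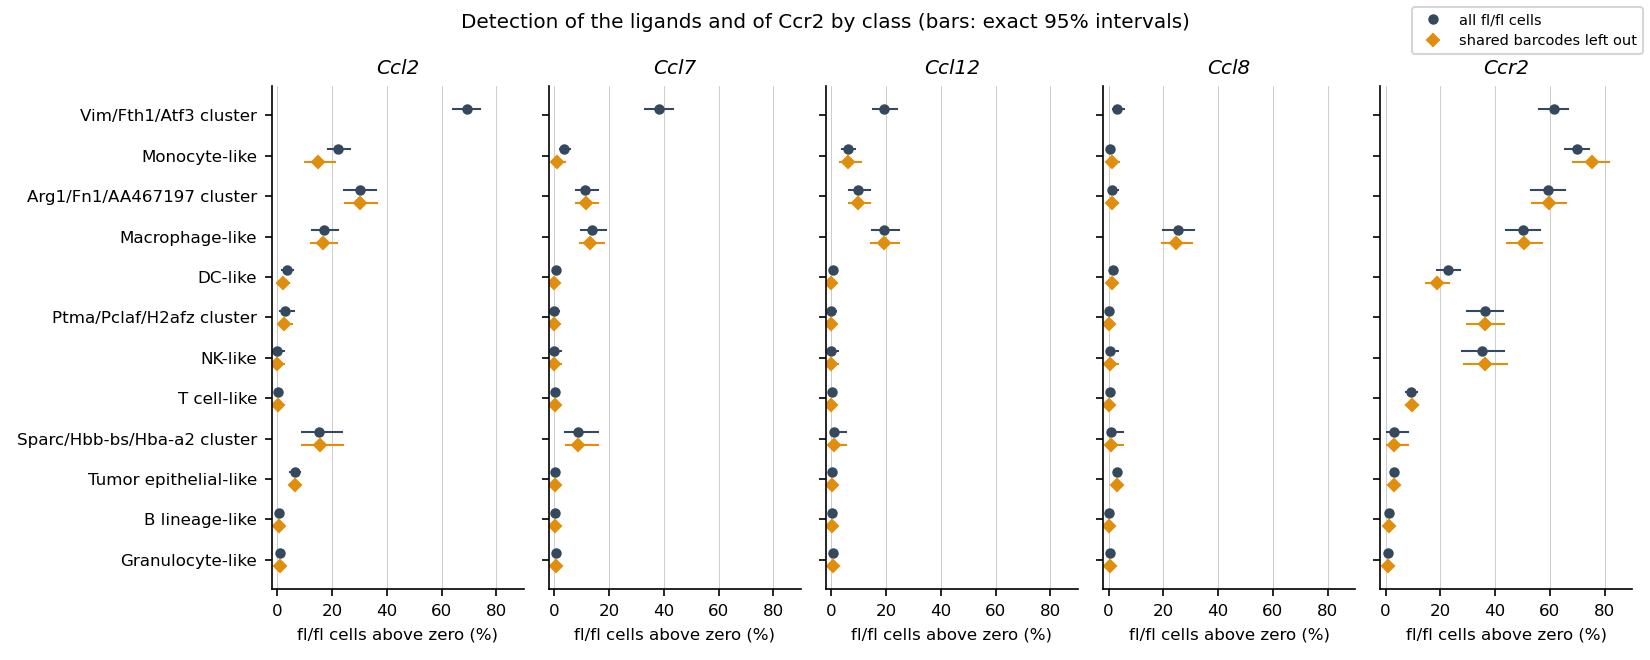
Percentage of fl/fl cells above the zero level (horizontal axis) for each of the 5 genes in 12 classes (rows), over all cells and with shared barcodes left out; bars are exact 95% intervals. Ccr2 is highest in Monocyte-like cells (75.6% without shared barcodes), Ccl2 in the Arg1/Fn1 cluster (30.3%) and Ccl8 in Macrophage-like cells (24.7%); the Vim/Fth1/Atf3 cluster is drawn over all cells only, since 19 of its cells remain without shared barcodes.

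Counted over the whole library, ligand sources and receptor-bearing cells overlapped but were not ordered alike. Of the 245 Ccl2-positive fl/fl cells without shared barcodes, the Arg1/Fn1 cluster held 31.4% (25.7% to 37.7%), tumor epithelial-like cells 20.4% (15.5% to 26.0%), Macrophage-like cells 17.1% and Monocyte-like cells 11%. Tumor epithelial-like cells ranked high by their number and not by their share of positive cells. Their place above Macrophage-like cells also rested on low values. At least 1 unit above zero for Ccl2 were 17 of 777 tumor epithelial-like and 23 of 251 Macrophage-like cells. Of the 88 Ccl7-positive cells, Macrophage-like cells held 37.5% (27.4% to 48.5%) and the Arg1/Fn1 cluster 33.0% (23.3% to 43.8%). Macrophage-like cells held 50.5% (40.1% to 61.0%) of the 95 Ccl12-positive cells and 59.0% (49.0% to 68.6%) of the 105 Ccl8-positive cells.

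The 739 Ccr2-positive cells without shared barcodes were spread more widely. The Arg1/Fn1 cluster held 20.6%, Monocyte-like cells 18.4%, Macrophage-like cells 17.2%, the Ptma/Pclaf/H2afz cluster 10.3%, T cell-like cells 9.74%, DC-like cells 9.34% and NK-like cells 7.58%. Tumor epithelial-like cells, with 20.4% of the Ccl2-positive cells, held 3.25%. These shares depend on how many cells of each class were captured and deposited. With shared barcodes kept, the Vim/Fth1/Atf3 cluster became the first source of Ccl2 (42.8% of 551 cells), Ccl7 (56.8% of 229) and Ccl12 (37.5% of 176), and the Monocyte-like class the first holder of Ccr2 (27% of 1139).

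**Figure D3:**
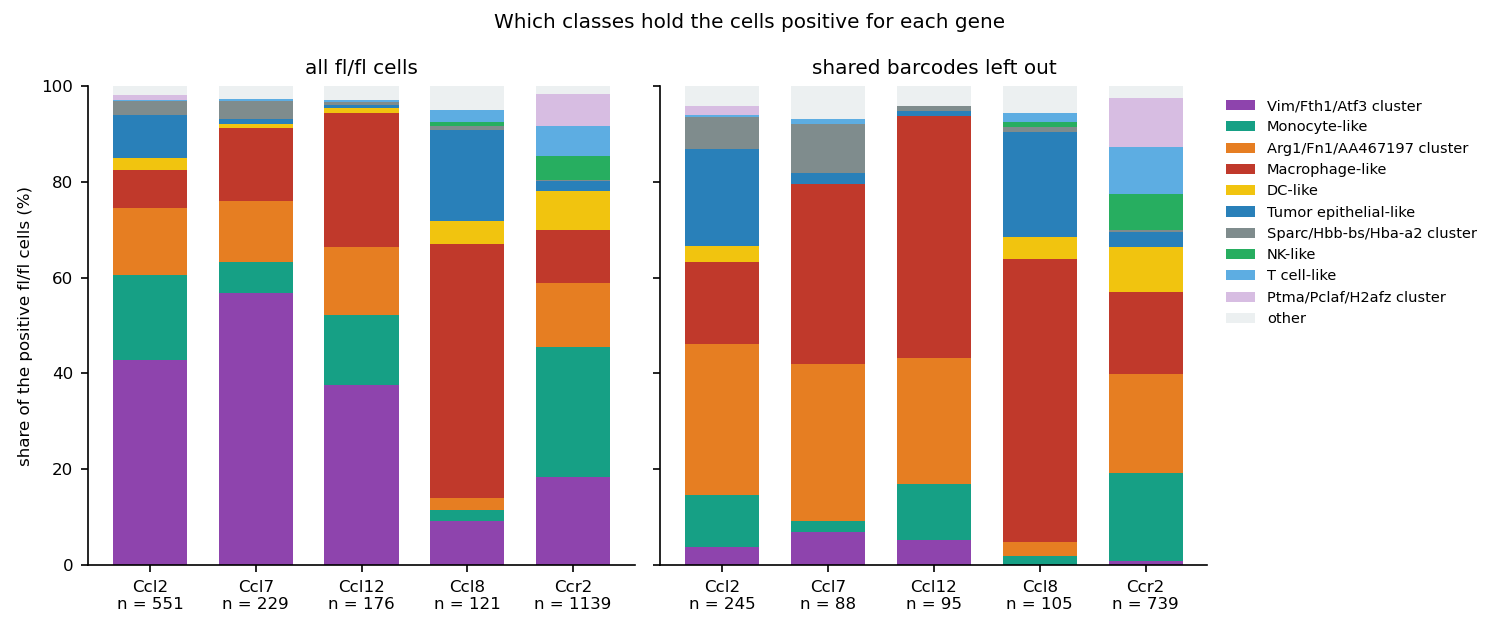
Share of all fl/fl cells above zero for each gene (vertical axis, percent) that each class holds (stacked colors), over all cells and with shared barcodes left out. The Vim/Fth1/Atf3 cluster holds 42.8% of Ccl2-positive cells when all are kept and 3.67% when shared barcodes are left out, while Macrophage-like cells hold over 52% of Ccl8-positive cells either way.

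Classes also differed in whether single cells carried ligand, receptor or both. Without shared barcodes, 48 of 251 Macrophage-like cells (19.1%) had Ccr2 and at least 1 ligand above zero, 64 (25.5%) had a ligand without Ccr2, 79 (31.5%) Ccr2 without a ligand and 60 (23.9%) neither. Of the Arg1/Fn1 cluster, 59 of 254 cells (23.2%) had both, 31 (12.2%) a ligand without Ccr2 and 93 (36.6%) Ccr2 without a ligand. Monocyte-like cells were mostly receptor-bearing, with 107 of 180 (59.4%) having Ccr2 without a ligand, 29 (16.1%) both and 5 (2.78%) a ligand without Ccr2. Tumor epithelial-like cells were the reverse, with 64 of 777 (8.24%) having a ligand without Ccr2 and 2 (0.257%) both. Their contrast rested in part on low values. At least 1 unit above zero were 17 of the 777 cells (2.19%) for Ccl2, 12 (1.54%) for Ccl8 and 20 (2.57%) for Ccr2.

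In Macrophage-like cells and the Arg1/Fn1 cluster, Ccl2, Ccl7 and Ccl12 were detected together. Among Macrophage-like cells without shared barcodes, Ccl7 was above zero in 22 of 42 Ccl2-positive cells (52.4%, 36.4% to 68.0%) and in 11 of 209 Ccl2-negative cells (5.26%). Ccl12 was above zero in 22 of 42 Ccl2-positive (52.4%) and 26 of 209 Ccl2-negative cells (12.4%). Ccl2-positive cells had more genes above zero, with a median of 172.5 against 115, and cells with more genes are positive for more of them. Among Macrophage-like cells with 72 to 179 genes above zero, shared barcodes included, Ccl7 was above zero in 13 of 20 Ccl2-positive cells (65.0%) and 5 of 67 Ccl2-negative cells (7.46%), with median genes of 92.5 and 93. Within the Arg1/Fn1 cluster Ccl7 was above zero in 26 of 77 Ccl2-positive (33.8%) and 3 of 177 Ccl2-negative cells (1.69%), at medians of 252 and 142 genes. Among cells of that cluster with 72 to 179 genes above zero, Ccl7 was above zero in 5 of 23 Ccl2-positive (21.7%) and 1 of 63 Ccl2-negative cells (1.59%), and Ccl12 in 2 of 23 (8.70%) and 2 of 63 (3.17%), so the gaps were smaller there. In tumor epithelial-like cells, by contrast, Ccl7 was above zero in 1 of 50 Ccl2-positive cells (2%), and in the Sparc/Hbb-bs/Hba-a2 cluster Ccl7 was above zero in 9 of 16 Ccl2-positive cells (56.2%) and Ccl12 in 0 of 16.

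Ccl8 was set against the other ligands and Ccr2 in the same way. Among Macrophage-like cells Ccl2 was above zero in 13 of 62 Ccl8-positive (21.0%) and 29 of 189 Ccl8-negative cells (15.3%), Ccl7 in 14 (22.6%) and 19 (10.1%), and Ccl12 in 13 (21.0%) and 35 (18.5%), with overlapping intervals each time. Among those with 72 to 179 genes above zero, Ccl2 was found in 7 of 21 Ccl8-positive (33.3%) and 13 of 66 Ccl8-negative cells (19.7%), Ccl7 in 9 (42.9%) and 9 (13.6%), and Ccl12 in 7 (33.3%) and 11 (16.7%). These intervals overlap as well, and the gaps are wider than over all depths. Ccr2 was above zero in 19 of 62 Ccl8-positive cells (30.6%, 19.6% to 43.7%) and in 108 of 189 Ccl8-negative cells (57.1%, 49.8% to 64.3%). The medians of genes above zero were 115 and 136. Among Macrophage-like cells with 72 to 179 genes above zero, Ccr2 was above zero in 0 of 21 Ccl8-positive cells and 27 of 66 Ccl8-negative cells (40.9%), at medians of 85 and 97.5 genes. Ccr2 was thus less frequent in Macrophage-like cells with Ccl8, and the intervals with and without Ccl8 did not overlap.

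Ccl12 did not share this pattern: Ccr2 was above zero in 29 of 48 Ccl12-positive (60.4%) and 98 of 203 Ccl12-negative Macrophage-like cells (48.3%), at medians of 252 and 111 genes. Ccl7 went in the direction of Ccl8 and Ccl2 in that of Ccl12. The Ccr2 share with minus without the ligand was -26.5 percentage points for Ccl8, -9.41 for Ccl7, 7.86 for Ccl2 and 12.1 for Ccl12. In the Arg1/Fn1 cluster Ccr2 was above zero in 59 of 90 cells with any ligand (65.6%, 54.8% to 75.3%) and 93 of 164 without (56.7%, 48.8% to 64.4%), intervals that overlap. In Monocyte-like cells the numbers were 29 of 34 (85.3%) and 107 of 146 (73.3%), which overlap as well. In the Vim/Fth1/Atf3 cluster they were 165 of 246 (67.1%) and 45 of 95 (47.4%) over all cells, and 3 of 12 (25%) and 3 of 7 (42.9%) without shared barcodes, the other way round.

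**Figure D4:**
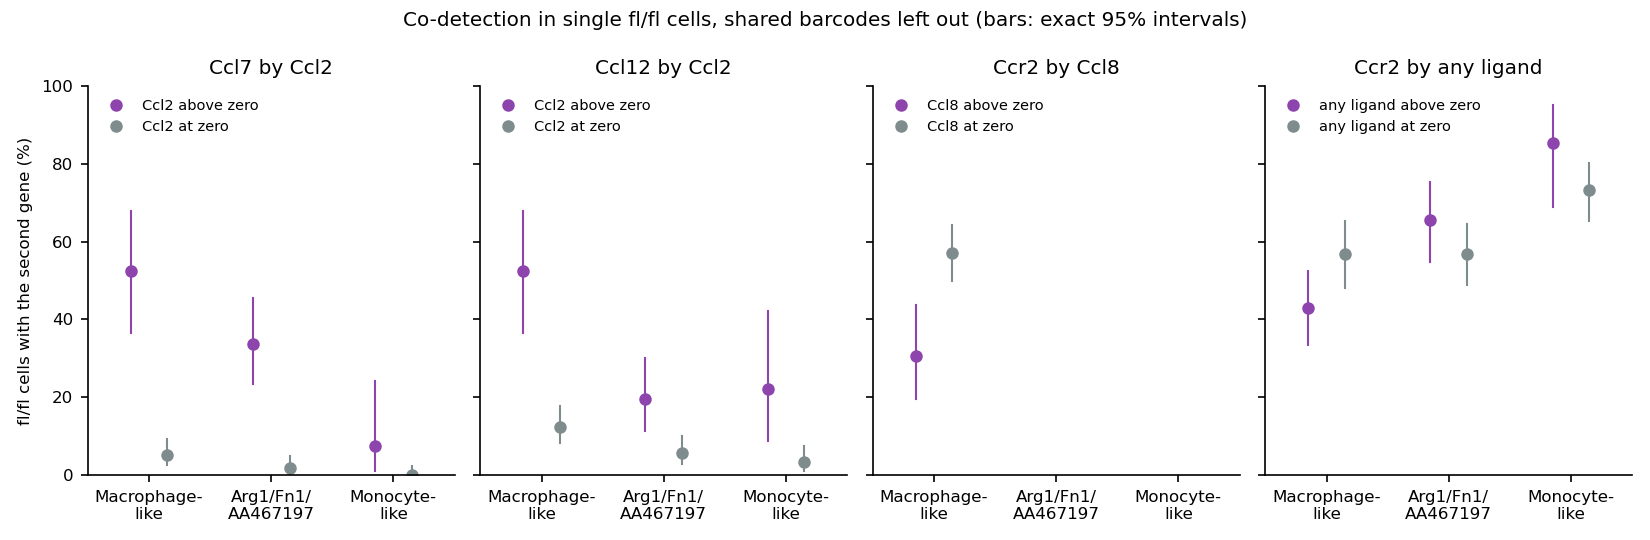
Percentage of fl/fl cells above zero for a second gene (vertical axis) among cells with and without a first gene, in up to 3 classes, shared barcodes left out; bars are exact 95% intervals. Ccl7 is found in 52.4% of Ccl2-positive and 5.26% of Ccl2-negative Macrophage-like cells, and Ccr2 in 30.6% of Ccl8-positive and 57.1% of Ccl8-negative ones.

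The genotypes were then compared within classes by the mean scaled value, in the Ahr cKO library minus the fl/fl library. Differences of 0.1 or more were counted, for genes detected in 5% or more of a class's fl/fl cells. Where a gene was detected in fewer than 40% of them, the shift of the Ahr cKO values was also estimated from neighboring cells and removed, in 2 forms. Without shared barcodes, 37.4% of 687 genes passed 0.1 either way in the Macrophage-like class (21% higher, 16.4% lower in Ahr cKO cells), 34% in the Arg1/Fn1 cluster (20.6% and 13.4%), 30.6% in the Monocyte-like class (17.3% and 13.3%) and 30.6% in the DC-like class (19.1% and 11.5%). With the estimated correction removed, the shares either way in its 2 forms were 40.4% and 37% in the Macrophage-like class, 35.1% and 33.4% in the Arg1/Fn1 cluster and 34% and 35.8% in the Monocyte-like class. Passing 0.1 is thus common among all genes. The targeted gene, Ahr, averaged 0.26 (SD 1.15) in Macrophage-like cells of the library labelled Ahr cKO and 0.08 (SD 1.03) in those of the fl/fl library, a difference of 0.19 as deposited and -0.03 and -0.06 with the correction removed. In Monocyte-like cells it averaged -0.03 (SD 0.62) in Ahr cKO and 0.10 (SD 1.23) in fl/fl cells, a difference of -0.13. Which part of Ahr was deleted is not given in the sources used here, and reads outside that part do not check the label, so every direction below is that of the library labelled Ahr cKO.

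All 5 members were counted in the Macrophage-like class, where 37.4% of 687 genes passed 0.1 either way. As deposited, all 5 passed 0.1 there, 4 lower and Ccl8 higher in Ahr cKO cells, with Ccl2 at the limit (-0.10). With the correction removed, Ccl12 (-0.08 in the first form) and Ccl8 (0.03 in the second) no longer passed. Ccr2 was too frequent in that class, in the Arg1/Fn1 cluster and in the Monocyte-like class for an estimate of the correction.

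Ccr2 was lower in Ahr cKO Macrophage-like cells, at a mean of 0.20 (SD 1.03, 168 cells), against 0.66 (SD 1.4, 251 cells) in fl/fl cells, a difference of -0.46. At least 1 unit above the fl/fl zero level lay 37 of 168 Ahr cKO cells (22.0%) and 96 of 251 fl/fl cells (38.2%). At 3 units above that level there were 7 Ahr cKO cells (4.17%) and 31 fl/fl cells (12.4%). Since the Ahr cKO values appear to have been moved, such counts, here and below, carry the same shift and are not separate evidence. The cells of both libraries overlapped widely, and with 15 principal components in place of 30 the difference was -0.17. In the Arg1/Fn1 cluster Ccr2 averaged 0.59 (SD 1.23) in Ahr cKO cells and 0.83 (SD 1.45) in fl/fl cells, a difference of -0.24 that was -0.06 when the 5 genes were left out of the clustering.

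In Monocyte-like cells Ccr2 went the other way once shared barcodes were left out. It averaged 2.15 (SD 1.88, 132 cells) in Ahr cKO cells and 1.97 (SD 2.07, 180 cells) in fl/fl cells, a difference of 0.17, and 101 of 132 Ahr cKO (76.5%) and 124 of 180 fl/fl cells (68.9%) lay at least 1 unit above zero. Over all Monocyte-like cells, of which most carry shared barcodes, the means were 1.23 in Ahr cKO and 1.25 in fl/fl cells, a difference of -0.02, and 12.1% of genes passed 0.1. DC-like cells gave -0.15 without shared barcodes and -0.05 with them. The cluster led by H2-DMb1, in which Ccr2 was most frequent, held 39 of 178 Ahr cKO (21.9%) and 141 of 369 fl/fl DC-like cells (38.2%) without shared barcodes, so the makeup of the class moved with this difference, and its part in it was not tested. In the Ptma/Pclaf/H2afz cluster Ccr2 averaged 0.44 (SD 1.33) in Ahr cKO and 0.29 (SD 1.19) in fl/fl cells, a difference of 0.15 as deposited and -0.088 and -0.064 with the correction removed, in a cluster where 51.2% of genes passed 0.1. In NK-like cells Ccr2 differed by -0.04 as deposited, and by 0.035 and 0.020 with the correction removed.

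Ccl7 was lower in Ahr cKO Macrophage-like cells under each treatment of the values. It averaged 0.02 (SD 0.49) in Ahr cKO and 0.38 (SD 1.83) in fl/fl cells, a difference of -0.36 as deposited, and -0.45 and -0.47 with the estimated correction removed. At least 1 unit above zero were 3 of 168 Ahr cKO (1.79%) and 24 of 251 fl/fl cells (9.56%), and at least 3 units 1 Ahr cKO (0.595%) and 19 fl/fl cells (7.57%). The difference was smaller when cells were grouped in other ways, down to -0.15 when cells were clustered anew without shared barcodes. Ccl2 in these cells averaged -0.07 (SD 0.44) in Ahr cKO and 0.03 (SD 0.76) in fl/fl cells. The difference was -0.10 as deposited, -0.14 and -0.16 with the correction removed, and -0.01 with 15 principal components. At least 1 unit above zero for Ccl2 were 5 of 168 Ahr cKO cells (2.98%) and 23 of 251 fl/fl cells (9.16%), and at least 3 units 1 Ahr cKO (0.595%) and 4 fl/fl cells (1.59%).

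For Ccl12 and Ccl8 the treatment of the values decided the size. Ccl12 averaged -0.08 (SD 2.01) in Ahr cKO and 0.64 (SD 2.25) in fl/fl Macrophage-like cells, a difference of -0.72 as deposited, but -0.08 and -0.23 with the correction removed. At least 1 unit above zero for it were 17 of 168 Ahr cKO cells (10.1%) and 30 of 251 fl/fl cells (12%), and at least 3 units 9 Ahr cKO (5.36%) and 22 fl/fl cells (8.76%). Ccl8 averaged 1.47 (SD 3.28) in Ahr cKO and 1.18 (SD 2.86) in fl/fl cells, a difference of 0.29 as deposited and 0.18 and 0.03 with the correction removed. At least 1 unit above zero for Ccl8 were 53 of 168 Ahr cKO (31.5%) and 54 of 251 fl/fl cells (21.5%), and at least 3 units 28 Ahr cKO (16.7%) and 41 fl/fl cells (16.3%).

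Outside the Macrophage-like class, ligand differences past 0.1 as deposited were those of Ccl12 in the Arg1/Fn1 cluster, Ccl2 in Monocyte-like cells and Ccl2 in the Vim/Fth1/Atf3 cluster. In the Arg1/Fn1 cluster the differences were -0.07 for Ccl2, 0.06 for Ccl7 and 0.15 for Ccl12. With the correction removed, Ccl2 stood at -0.09 and -0.12, Ccl7 at 0.04 and -0.03, and Ccl12 at 0.08 and 0.02. In Monocyte-like cells Ccl2 differed by -0.13 without shared barcodes (-0.16 and -0.17 with the correction removed) and -0.03 with them, and Ccl12 by -0.01. Tumor epithelial-like cells, the class in which an implanted tumor line falls, differed in Ccl2 by -0.03. In the Vim/Fth1/Atf3 cluster, with nearly all barcodes shared, Ccl2 averaged 1.80 in Ahr cKO and 1.65 in fl/fl cells, a difference of 0.15 where 17.4% of genes passed 0.1. Ccl7 there averaged 1.30 in Ahr cKO and 1.27 in fl/fl cells, a difference of 0.03 as deposited and -0.29 and -0.25 with the correction removed.

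**Figure D5:**
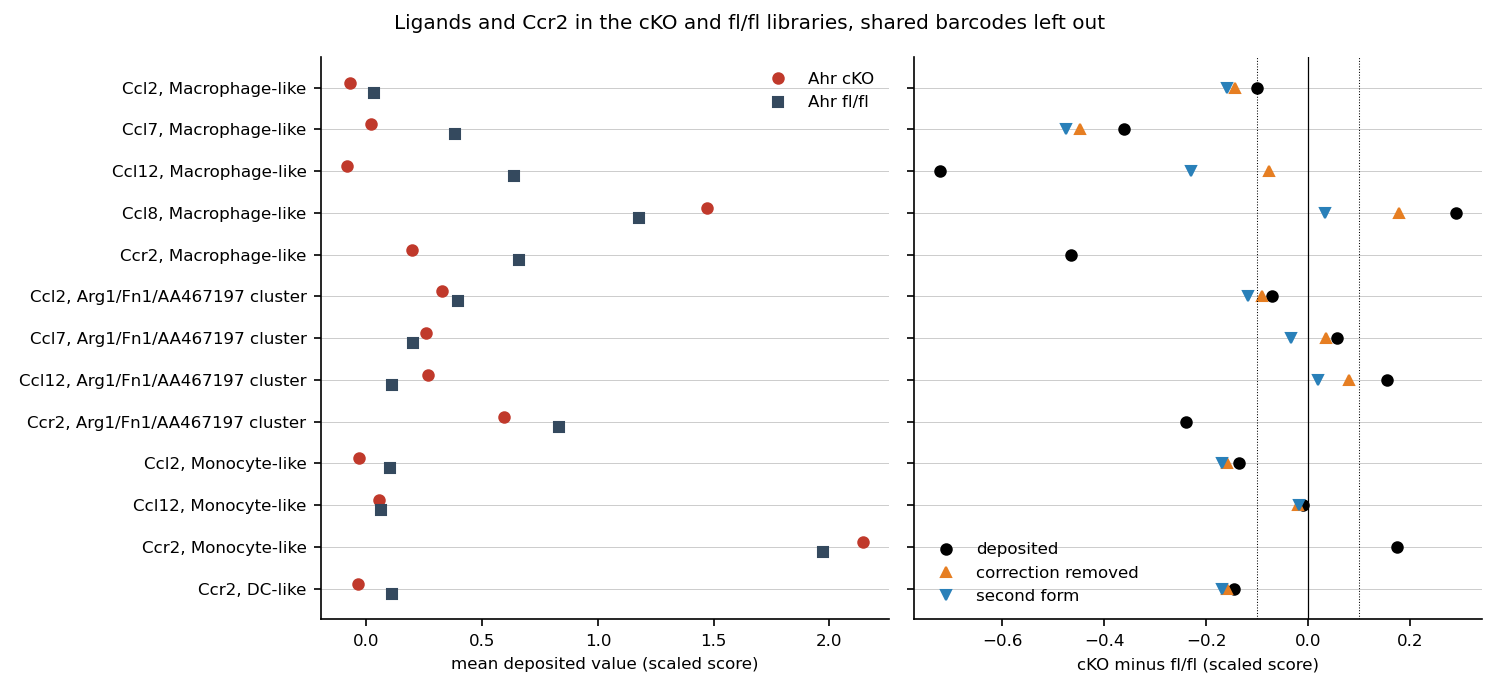
Left, mean scaled value in Ahr cKO (circles) and fl/fl cells (squares) by gene and class, shared barcodes left out. Right, Ahr cKO minus fl/fl as deposited and with the estimated correction removed in 2 forms; dotted lines mark 0.1 either way, and the Macrophage-like Ccl7 difference stays between -0.36 and -0.47 while that of Ccl12 lies at -0.72, -0.08 and -0.23.

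Genes were compared with the members over 24 clusters with at least 10 fl/fl cells, by the correlation of cluster means within the 1 library. Which genes came first depended on the measure. With all cells, Ccr2 was most like Ms4a6c (0.875), Tppp3 (0.843) and Csf1r (0.842), the receptor for the macrophage growth factor. Ccl2 was most like Hmox1, which encodes a heme-degrading enzyme (0.974), Gpnmb (0.972) and Plk2 (0.970). Ccl7 was most like Hmox1 (0.960), Ccl2 (0.958) and Gpnmb (0.95). Ccl8 followed Tlr12 (0.986), Ms4a7 (0.959) and Apoe (0.957), an apolipoprotein abundant in macrophages, and Ccl12 followed Lgmn (0.940) and Mmp13 (0.902). Between members, Ccl2 and Ccl8 had a correlation of 0.07 over cluster means, but a rank correlation of 0.47, and the lowest rank correlation was that of Ccr2 and Ccl8 (0.37). Over 5196 single cells Ccr2 and Ccl8 also had the lowest value, at -0.02. By rank correlation over clusters another gene came first for each member, at 0.774 to 0.866. Over single cells the highest values were lower, from 0.403 for Ccr2 with Ms4a6c to 0.645 for Ccl2 with Ccl7. Without shared barcodes the first gene over cluster means became Plk2 for Ccl2 (0.977), Gpnmb for Ccl7 (0.979) and Ccl7 for Ccl12 (0.971). It was again Ms4a6c for Ccr2 (0.922) and Tlr12 for Ccl8 (0.982). There the Vim/Fth1/Atf3 cluster counts as a full point although it holds only 19 cells.

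Genes of the same pathway were read as 6 lists, without shared barcodes. Of 15 other CC receptors and decoy receptors 5 were measured, and the 2 that were detected in 5% of Macrophage-like cells had a median difference of 0.20, with Cx3cr1, the fractalkine receptor of patrolling monocytes and tissue macrophages, at 0.49. With the correction removed Cx3cr1 stood at -0.30. Of the 6 other CC chemokines counted in that class 1 was higher, Ccl24 (0.24, and 0.28 with the correction removed), and 1 lower, Ccl5 (-0.13). Of 10 counted genes of monocyte release, entry and maturation 3 were higher and 2 lower, where 21% of all genes were higher and 16.4% lower. The adhesion molecule Vcam1 was higher, averaging 1.64 in Ahr cKO and 0.46 in fl/fl cells, a difference of 1.17 (0.44 with the correction removed). Plac8, a gene of classical monocytes, was lower (-0.38), as was the adhesion molecule Icam1 (-0.13), and Csf1r was higher (0.24). The median over all 687 genes of the class was 0.00.

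The other lists of that class had medians close to that of all genes. Of 6 counted NF-kappaB targets and inducers 1 was higher, Il1a (0.23), with a list median of -0.02. Of 10 interferon response genes 1 was higher and 3 lower, Gbp2 among them (-0.15), with a median of -0.04. Of 8 dissociation and stress genes none was higher and 2 were lower, Fos among them (-0.19), with a median of -0.04.

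The list medians of the Arg1/Fn1 cluster lay between -0.03 and 0.12, against 0.01 over all 688 genes. Of 8 stress genes there 2 were higher and 4 lower, where 20.6% of all genes were higher and 13.4% lower, with Atf3 at -0.29 and Hspa1b at -0.23. Fn1, the fibronectin gene that helped to define the cluster, was higher by 0.72. Ccl24 changed sign with the treatment of the values, at 0.19 as deposited and -0.51 with the correction removed. Ccl3, a ligand of other CC receptors, was lower both as deposited (-0.19) and with the correction removed (-0.17).

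In Monocyte-like cells, 6 of 11 counted genes of monocyte release, entry and maturation were higher and 2 lower, with a list median of 0.12 against 0.00 over 631 genes, of which 17.3% were higher and 13.3% lower. With the correction removed, 0 of the 5 genes that allow an estimate were higher and 3 were lower, in both forms. Nr4a1, a nuclear receptor of patrolling monocytes, was higher by 0.37, the coagulation factor gene F13a1 by 0.35, Cx3cr1 by 0.27, and Vcan and Chil3 by 0.25 each. Ccr2 itself, at 0.17, moved in the same direction. With the correction removed Nr4a1 stood at -0.16, Cx3cr1 at -0.00 and Vcan at 0.02, and F13a1, Chil3 and Ccr2 are too frequent in this class for that estimate.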

How the data were processed

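Per the labels, 10X Genomics Chromium libraries were made from pooled tumors of 3 mice per genotype. The deposited values are scores: scaled expression of 2000 genes per cell, cut at 10, and a UMAP embedding. Cell Ranger 3.0.0, Seurat 3.1.4 and mm10/GRCm38 are named in the submitters' processing notes without role or order; filters, doublet removal and integration are not given in the sources used here. That the Ahr cKO values were moved by a correction is inferred from the values. The members and lists were chosen with earlier results of these data known.

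Cells were clustered on all 2000 genes (30 principal components, 15 neighbors, Leiden resolution 1) with Python 3.11.15, scanpy 1.11.5, igraph 0.11.9, scikit-learn 1.9.0, numpy 2.4.6, pandas 2.3.3 and scipy 1.17.1; figures used matplotlib 3.10.9 and sequences Biopython 1.88. A class was named where its markers averaged at least 0.5, the next list stayed under 0.5 times that and at least 3 markers were detected. In addition, no other marker family could have more markers among the top 10 genes than the family named. Possible doublets, cells with at least 3 markers of 2 families, were kept (161 Ahr cKO and 237 fl/fl cells). A gene was called above zero where it exceeded its lowest fl/fl value by more than 1e-06. The correction of a gene was estimated as the 0.3 quantile over the 30 nearest Ahr cKO cells and subtracted. The second form took 50 cells and a quantile of 0.5 times the fl/fl share at zero. Only the first form was run on simulated data, with a shift made smooth over the principal components, and its outcome is not given here. Classes needed 50 cells per library. Shares carry exact Clopper-Pearson 95% intervals, and a share of 0 a limit of 3 cells. Named are the members, the 3 genes most like each, the 3 leading genes of each described cluster and members of the 6 lists; other leading genes (Col1a1, Col3a1) were chosen after their values were seen. Leaving out shared barcodes was chosen after seeing the data. One gene that the naming rule picks is not reported here.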

Additional observations from a re-analysis of the deposited data

Results flagged for a closer look

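Ccr2 differed between the genotypes in opposite directions in different classes once shared barcodes were left out. The Ahr cKO minus fl/fl difference was 0.17 in Monocyte-like cells, and -0.46 in Macrophage-like cells, -0.24 in the Arg1/Fn1 cluster and -0.15 in DC-like cells. With 1 library per genotype the difference between classes was not tested. Of all genes, 37.4% passed 0.1 either way in the Macrophage-like class, 34% in the Arg1/Fn1 cluster and 30.6% in the Monocyte-like and in the DC-like class. The Macrophage-like and Arg1/Fn1 differences were smaller in some other groupings of the cells. In those classes and the Monocyte-like class no correction could be estimated for Ccr2. The cluster led by H2-DMb1 held 21.9% of Ahr cKO and 38.2% of fl/fl DC-like cells. In Monocyte-like cells the Ccr2 difference was -0.02 with shared barcodes kept. The Ptma/Pclaf/H2afz cluster, at 0.15 as deposited, turned to -0.088 and -0.064 with the estimated correction removed.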

How the results depend on the processing

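No paired analysis was possible because each genotype has 1 library. Values given first below are over all cells. Counting only cells at least 1 unit above zero gave Ccr2 in 53.4% of Monocyte-like cells (70.0% otherwise), Ccl2 in 45.7% and Ccl7 in 31.4% of the Vim/Fth1/Atf3 cluster, and Ccl12 in 12.3% of Macrophage-like cells. It put Monocyte-like cells at 30.8% of Ccr2-positive cells, the Vim/Fth1/Atf3 cluster at 50.6% of Ccl2 and 63.3% of Ccl7, and Macrophage-like cells at 65.9% of Ccl8. Within cells of 72 to 179 genes, Ccl2 was in 56.2% and Ccl7 in 22.4% of the Vim/Fth1/Atf3 cluster. With 15 principal components these were 62.5% and 29.98%, and Ccl8 was in 32.2% of Macrophage-like cells.

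Leaving out shared barcodes gave Ccr2 in 75.6% of Monocyte-like cells, Ccl2 in 47.4% and Ccl7 in 31.6% of the Vim/Fth1/Atf3 cluster, Monocyte-like cells 18.4% of Ccr2, and that cluster 3.67% of Ccl2, 6.82% of Ccl7 and 5.26% of Ccl12. Clustered anew without them, Ccl8 was in 18.2% of Macrophage-like cells, Monocyte-like cells held 23.4% of Ccr2, and the cluster held 0 cells of Ccl2, Ccl7 and Ccl12.

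The Ahr cKO minus fl/fl difference of Macrophage-like Ccr2 (-0.46) was -0.17 with 15 principal components, and that of the Arg1/Fn1 cluster (-0.23) was -0.059 with the members left out of clustering and -0.071 clustered anew. Macrophage-like Ccl7 (-0.36) was -0.47 in the second form of the correction, -0.24 at resolution 2, -0.23 with 15 principal components, -0.21 with members left out and -0.15 clustered anew. Ccl8 (0.29) was 0.17 with the correction removed, 0.040 in the second form and 0.087 with 15 principal components. Ccl12 (-0.70) was -0.071 with the correction removed, -0.22 in the second form, -0.45 with 15 principal components, -0.53 with members left out, -0.40 clustered anew and -0.52 without possible doublets; in the Arg1/Fn1 cluster (0.15) it was 0.021 in the second form. The cause of these moves was not tested.

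The share of Ccr2-positive cells with any ligand minus without, in percentage points, was 19.7 in the Vim/Fth1/Atf3 cluster and reversed to -6.88 at 1 unit above zero, was 5.22 within 72 to 179 genes, and was -17.9 without shared barcodes (19 cells). In Macrophage-like cells (-14.7) it was -25.6 at 1 unit, and in the Arg1/Fn1 cluster (9.53) -2.69 within 72 to 179 genes. The counts over the 6 lists below show only how calls moved between settings, since the number of genes counted is not given beside them. Of all genes, 12.1% of 577 passed 0.1 either way over all Monocyte-like cells. Without shared barcodes 37.4% of 687 passed in the Macrophage-like class and 34% of 688 in the Arg1/Fn1 cluster. Over the lists, genes higher in Monocyte-like cells (10) numbered 1 with the correction removed, 0 in the second form and 1 at a threshold of 0.2. Those lower (1) numbered 2, 7 and 0, and 6 without shared barcodes. In Macrophage-like cells 7 were higher, 3 with the correction removed and 2 in the second form; 8 were lower, 5 with it removed and 1 at 0.2. In the Arg1/Fn1 cluster 8 were higher, 3 in the second form and 3 at 0.2; 7 were lower, 12 in the second form and 3 at 0.2. How many recomputed values kept their direction and size within the limits set depended on the setting. At resolution 2, 42 of 43 did, and without possible doublets 37 did and 1 moved. With 15 principal components 26 kept them and 12 moved, and clustered anew without shared barcodes 21 kept them and 14 moved. Within 72 to 179 genes 8 kept them and 16 moved. Counting only cells at least 1 unit above zero, 4 shares kept them and 21 moved. Molecule counts are unknown, so a gene at zero in a cell says only that it was not detectable at this depth.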
